A study of Mus musculus with 8 samples.

Results

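The 9 secreted FGF ligands Fgf1, Fgf2, Fgf3, Fgf7, Fgf9, Fgf10, Fgf18, Fgf20 and Fgf22 were followed in sorted alveolar epithelial cells of the fetal mouse lung. The members were taken by symbol: every spot annotated to one of these genes was kept, 18 of 62976 spots and 9 of 24306 named genes, and the brightest spot stood for its gene. Fgf1, Fgf2, Fgf3 and Fgf10 had 3 spots each, Fgf22 had 2, and Fgf7, Fgf9, Fgf18 and Fgf20 had 1. The 4 groups of 2 single-colour arrays each were measured at E18.5: experimental AECII (Exp_Fgfr2bflox, type II alveolar epithelial cells), control AECII (Ctl), experimental AECI (Exp_Fgfr2bflox, type I cells) and control AECI (Ctl). Pregnant females with embryos of either genotype were given tamoxifen at E14.5 and E15.5, and control embryos came from other females, which means that genotype cannot be told apart from litter. The series title names Sftpc-expressing cells, but the Cre line, the full control genotype, how the cells were gated and how many embryos each sample pooled are given in none of the sources used here. The design text calls the replicates biological, but no source says whether each was a separate animal, and the p-values describe only how far these samples spread.

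FGFs are secreted proteins that bind receptor tyrosine kinases (FGFRs) together with heparan sulfate and signal largely through ERK. Fgf7, Fgf10, Fgf3 and Fgf22 form the branch that signals mainly through the epithelial IIIb form of FGFR2, Fgf9 and Fgf20 form a branch that prefers the IIIc receptors, Fgf18 belongs to the Fgf8 branch, and Fgf1 can bind every FGFR. In the embryonic lung, Fgf10 of the mesenchyme drives growth of the epithelium, whereas Fgf9 of the mesothelium and epithelium acts on the mesenchyme.

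Values are log2 signals that were normalized by the authors to nearly the same distribution on each array, with a median of 5.18 and a lower quartile of 3.07 over all spots. The brightest spot of 43.8% of all genes averaged below that median, and no detection call was used, so a spot under it carries no statement about background. Replicate arrays correlated across genes with r between 0.951 and 0.978. One control AECII array (replicate 2) and one control AECI array (replicate 1) had low Xist and high Eif2s3y, and the other 6 arrays had the reverse pattern. No experimental array had low Xist, so this pattern was not balanced between the genotypes. By limma over both genotypes, 14 of 16 AT1 markers were lower and 11 of 14 AT2 markers higher in AECII. Of all genes, 3.62% were called lower and 4.69% higher. The mean log2 level of the AT2 list was 13.5 to 13.6 in AECII and 12.3 to 12.5 in AECI, so AT2 transcripts were bright in both populations.

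By signal, 4 ligands averaged above the array median and 5 below it, the latter called dim here. Signal also depends on the spot, so it does not rank the ligands by abundance. The 3 spots of Fgf1, all annotated to the same transcript, averaged 14.09, 11.87 and 7.11. Fgf1, Fgf18 and Fgf3 lay above the array median on all 8 arrays. Fgf9 averaged 5.27, just above the median, and exceeded it on 6 of 8 arrays. Fgf10, Fgf7, Fgf22, Fgf2 and Fgf20 averaged below the median, and Fgf22, Fgf2 and Fgf20 averaged below the lower quartile. Of all 18 spots, 6 averaged above the median: the 3 of Fgf1 and 1 each of Fgf18, Fgf3 and Fgf9.

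**Figure D1:**
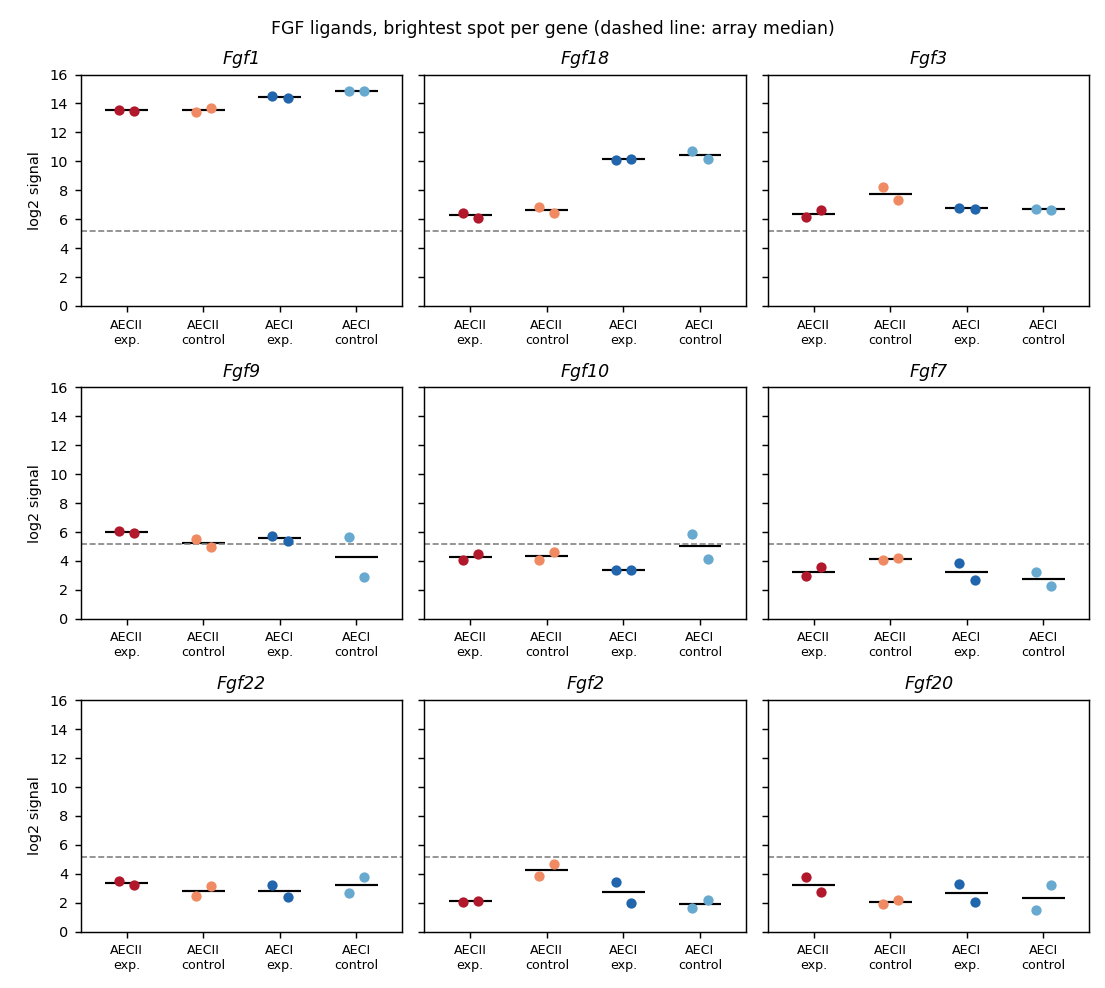
Log2 signal of the brightest spot of each FGF ligand (y axis) by group (x axis). Points are the 2 arrays of a group, the short black line is their mean and the dashed line is the array median of 5.18. Fgf1 and Fgf18 are lower in all 4 AECII arrays than in all 4 AECI arrays, and the panels of Fgf10, Fgf7, Fgf22, Fgf2 and Fgf20 lie mostly under the dashed line.

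Fgf18 showed the largest population difference of the 9 ligands. This gene of the Fgf8 branch, known for its part in skeletal growth and in formation of the distal lung, lies on chr11:33116970-33147400 (GRCm38.p6, minus strand). The genes most like Fgf18 were picked by correlation over these same arrays, so that they moved together follows from the choice. Shared regulation was not tested. The 250 bases before the annotated start of Fgf18 are shown as a description. The promoter of Akr1c14, the gene whose pattern was most like that of Fgf18, stands beside it for comparison. Both sequences are from RefSeq and run 5′ to 3′ on the strand of the gene, Fgf18 at chr11:33147401-33147650 and Akr1c14 at chr13:4059341-4059590. Capitals mark a GC box, GGGCGG read on either strand.
Fgf18: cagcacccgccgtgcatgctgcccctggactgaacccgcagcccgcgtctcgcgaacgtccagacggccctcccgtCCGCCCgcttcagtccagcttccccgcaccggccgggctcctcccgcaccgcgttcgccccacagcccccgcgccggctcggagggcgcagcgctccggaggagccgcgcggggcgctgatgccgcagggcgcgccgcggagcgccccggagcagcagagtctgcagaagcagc
Akr1c14: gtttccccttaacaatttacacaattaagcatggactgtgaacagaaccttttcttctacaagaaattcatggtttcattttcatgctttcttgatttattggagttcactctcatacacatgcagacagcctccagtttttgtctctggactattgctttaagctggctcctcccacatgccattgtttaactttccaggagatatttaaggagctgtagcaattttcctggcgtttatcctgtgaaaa
The Fgf18 window was 77.2% G and C with 37 CpG dinucleotides and held 1 GC box, whereas the Akr1c14 window was 38.8% G and C with 1 CpG and held none. The median of 32851 RefSeq promoter windows of this length was 52.4% G and C with 6 CpG, and 32.7% of them held a GC box. The TEAD motif GGAATG, searched on both strands, was in neither of the 2 windows and in 12.6% of all windows. The TATA box, searched as TATAAA on both strands, was likewise in neither and in 12.4% of all windows. The AP-1 motif, TGANTCA on both strands, was in neither and in 6.75% of all windows. Of the other genes most like Fgf18, Clic5 held 2 GC boxes, Tspan15 held 1 AP-1 match, Cdkn2b held none of the 4 motifs, and Ccn2 was not in the table. The RefSeq table held 7 of the 9 ligands, without Fgf1 and Fgf20.

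Fgf18 read 6.41 and 6.11 in experimental AECII, 6.85 and 6.42 in control AECII, 10.07 and 10.19 in experimental AECI, and 10.73 and 10.14 in control AECI. All 4 AECII arrays lay far below all 4 AECI arrays, and the 2 genotypes of a population lay close together. In AECII both experimental arrays lay below both control arrays, and 47.1% of all genes split by genotype there without overlap. The difference of AECII minus AECI was -3.83 (SE 0.22) over both genotypes, a signal 14.3-fold lower in AECII (limma, adjusted p = 0.00106). It was -3.87 (SE 0.31) in experimental lungs (adjusted p = 0.00748) and -3.80 (SE 0.31) in control lungs (adjusted p = 0.0078). The population difference itself did not differ detectably between the genotypes, at -0.07 with a 95% interval of -1.13 to 0.99. The call over both genotypes held without any single array, with differences of -3.98 to -3.69 and adjusted p of 0.00443 to 0.0111. Within control lungs it was lost without either control AECII array (adjusted p 0.074 and 0.0796), and within experimental lungs without either experimental AECII array or replicate 1 of experimental AECI (0.0712, 0.0825 and 0.0607), each with differences between -4.02 and -3.58. In bulk samples such as these, fewer cells with a transcript and less transcript per cell cannot be told apart.

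Fgf1, the ligand that binds all FGFRs and that has no classical secretion signal, was measured by 3 spots (chr18:38838672-38929470). On its brightest spot it read 13.56 and 13.48 in experimental AECII, 13.43 and 13.68 in control AECII, 14.502 and 14.401 in experimental AECI, and 14.86 and 14.84 in control AECI. Every AECII array lay below every AECI array. The difference over both genotypes was -1.11 (SE 0.16), 2.16-fold lower in AECII (limma, adjusted p = 0.012). In control lungs it was -1.30 (SE 0.23, adjusted p = 0.0428), and in experimental lungs it was -0.93 (SE 0.23) and did not pass the threshold (adjusted p = 0.0841). Whether the population difference depended on genotype was tested directly, and the difference of 0.37 had a 95% interval of -0.41 to 1.14 (adjusted p = 0.776). Over both genotypes Fgf1 lost its call when any one of the 4 AECII arrays was left out, although the difference stayed between -1.18 and -1.05 in all 8 such fits (adjusted p 0.03 to 0.0648). The call in control lungs was lost in all 8 of these fits (differences -1.42 to -1.17, adjusted p 0.0671 to 0.243).

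The other spots of Fgf1 ran the same way. The second spot read 11.13 and 11.21 in experimental AECII, 11.33 and 11.28 in control AECII, 12.18 and 12.19 in experimental AECI, and 12.90 and 12.71 in control AECI. The third spot, the dimmest, read 6.82 and 6.52 in experimental AECII, 6.06 and 6.16 in control AECII, 7.75 and 7.56 in experimental AECI, and 8.01 and 7.99 in control AECI. On all 3 spots the AECII arrays lay below the AECI arrays with no overlap. Fitted in place of the brightest spot, the second spot differed by -1.26 (SE 0.16, adjusted p = 0.00763) and the third by -1.44 (SE 0.17, adjusted p = 0.00639) over both genotypes. The spots did not run alike by genotype in AECII, where the third was 0.56 higher in experimental cells (adjusted p = 0.617) and the brightest differed by -0.03 (adjusted p = 0.982).

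**Figure D2:**
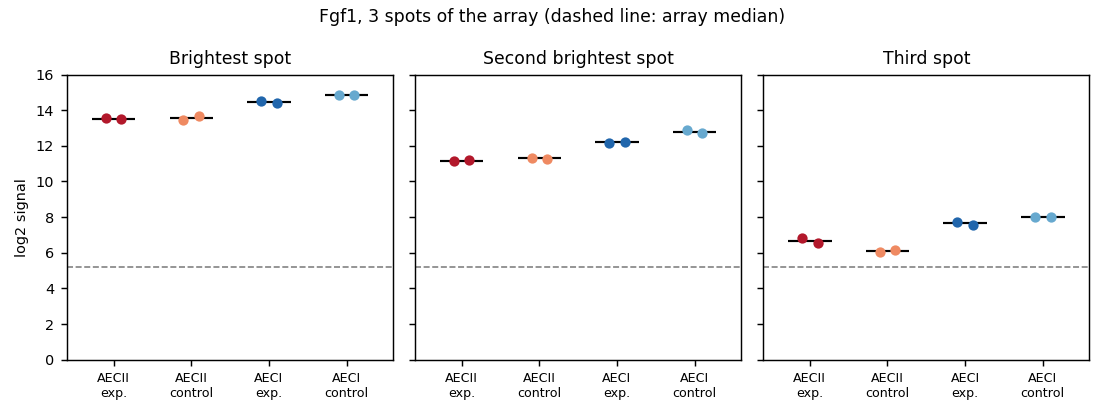
Log2 signal of the 3 Fgf1 spots (y axis) by group (x axis), with points for the 2 arrays, a black line for their mean and the array median dashed. On each spot the 4 AECII arrays sit below the 4 AECI arrays.

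Across the 9 ligands, Fgf1 and Fgf18 were thus called lower in AECII and none was called higher. Over both genotypes 2 of 9 were called lower, against 3.62% of all genes, and 0 of 9 higher, against 4.69%. In experimental lungs 1 of 9, Fgf18, was called lower against 1.27% of genes, and in control lungs 2 of 9 against 1.53%. The median difference of the 9 ligands over both genotypes was 0.13, beside -0.02 for all genes, and 7 of the 9 differences were positive. AECII and AECI arrays did not overlap for 2 of 9 ligands over both genotypes, against 15.9% of genes. With 2 arrays against 2 they did not overlap for 5 of 9 in experimental and 5 of 9 in control lungs, against 54.9% and 45.6% of genes. At an unadjusted limma p under 0.05 there were 2 ligands and 5254 genes in experimental lungs, and 5 ligands and 4064 genes in control lungs.

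**Figure D3:**
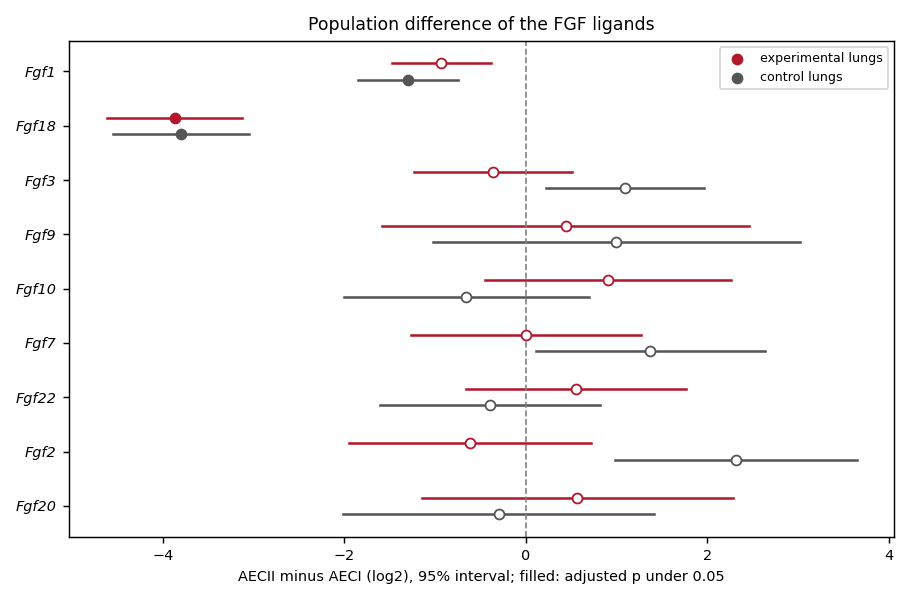
Difference of AECII minus AECI (x axis, log2) for each ligand (y axis) in experimental lungs (red) and control lungs (grey). Points are estimates, bars are 95% intervals and filled points passed an adjusted p of 0.05 in limma. Fgf18 at -3.87 and -3.80 stands apart from the other ligands, and the intervals of the dim ligands span about 2 to 4 log2 units.

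Fgf3, a ligand of the FGFR2 IIIb branch known from inner ear and tail development, read 6.17 and 6.61 in experimental AECII, 8.23 and 7.31 in control AECII, 6.79 and 6.72 in experimental AECI, and 6.69 and 6.66 in control AECI. Both control AECII arrays were above the other 6 arrays, which lay within a narrow band. AECII minus AECI was -0.37 (SE 0.36, adjusted p = 0.605) in experimental lungs and 1.10 (SE 0.36, adjusted p = 0.198) in control lungs. Its second spot, at 2.26 and 2.57 in experimental AECII, 3.52 and 3.44 in control AECII, 3.78 and 4.42 in experimental AECI, and 3.04 and 2.61 in control AECI, was below the array median throughout. The third spot averaged 2.52 and stayed below the median on every array.

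Fgf9, the ligand of the mesothelium and epithelium, read 6.08 and 5.92 in experimental AECII, 5.51 and 4.99 in control AECII, 5.72 and 5.40 in experimental AECI, and 5.64 and 2.86 in control AECI. Replicate 2 of control AECI was far below the other 7 arrays, and the 2 populations overlapped. The difference over both genotypes was 0.72 (SE 0.59, adjusted p = 0.511). Without replicate 1 of control AECI it was 1.42 and passed the threshold (adjusted p = 0.0308), with the low array alone standing for its group. Without that low array the difference in control lungs was -0.40, against 0.997 with it.

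The dim ligands gave no call. Fgf10, the mesenchymal ligand that drives branching, read 4.09 and 4.45 in experimental AECII, 4.08 and 4.64 in control AECII, 3.34 and 3.39 in experimental AECI, and 5.86 and 4.17 in control AECI. Only replicate 1 of control AECI exceeded the array median. Fgf7, known as keratinocyte growth factor, ranged from 2.27 in a control AECI array to 4.18 in a control AECII array. AECII minus AECI of Fgf7 was 1.37 (SE 0.52, limma, adjusted p = 0.259) in control lungs, without overlap, and 0.0006 in experimental lungs. Fgf22 ranged from 2.43 to 3.77 and Fgf20 from 1.49 to 3.76, both with overlapping populations. Fgf2, or basic FGF, read 2.07 and 2.12 in experimental AECII, 3.82 and 4.68 in control AECII, 3.45 and 1.97 in experimental AECI, and 1.66 and 2.20 in control AECI, so that the control AECII arrays were highest. Its other 2 spots did not repeat this order: in control AECII the second read 2.68 and 1.49 and the third 2.47 and 2.26, and on neither spot did these arrays lie above all others. AECII minus AECI of Fgf2 in control lungs was 2.32 (SE 0.55, adjusted p = 0.0925) with control AECI below the lower quartile.

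The genotype comparison asked how the ligands differed in lungs carrying the Fgfr2bflox label. None of the 9 ligands was called in AECII, where 0% of all genes were called, or in AECI, where 0.00411% were called, which is 1 gene, the erythroid gene Alas2. Over both populations 0.00411% of genes and no ligand were called, and for the difference between the 2 genotype effects 0% and no ligand. At an unadjusted p under 0.05 there were 2 ligands (Fgf2 and Fgf3) and 2002 genes in AECII, and 1 ligand (Fgf10) and 3022 genes in AECI. Experimental and control arrays did not overlap for 7 of 9 ligands in AECII, against 47.1% of genes, and for 3 of 9 in AECI, against 39.9%. Several marker lists differed in mean log2 level between the genotypes without overlap of the arrays. The 5 measured of 7 erythroid markers averaged 8.51 to 9.18 in experimental AECII and 11.6 in both control AECII arrays, and 6.89 to 7.92 in experimental AECI against 10.9 in both control AECI arrays. Club cell markers averaged 10.52 to 11.001 in experimental AECII against 9.87 to 9.91 in control AECII, and 8.87 to 8.97 in experimental AECI against 8.02 to 8.07 in control AECI. Ciliated cell markers averaged 10.76 to 11.12 in experimental AECII against 9.66 to 9.96 in control AECII, and 7.21 to 7.997 in experimental AECI against 6.94 to 7.11 in control AECI. These 2 airway lists were thus higher in experimental cells of both populations, as were the mesenchymal and heparan sulfate lists below. No gene of either airway list passed the threshold. Such a split without overlap was common among single genes, at 47.1% in AECII and 39.9% in AECI. Mesenchymal markers averaged 8.28 to 8.31 in experimental AECII against 7.79 to 8.16 in control AECII, and 9.39 to 9.57 in experimental AECI against 8.54 to 8.99 in control AECI. AT1 markers averaged 9.60 to 10.04 in experimental AECII against 10.10 to 10.25 in control AECII, and 12.59 to 12.74 in experimental AECI against 12.94 to 13.01 in control AECI. Endothelial markers, experimental against control, averaged 5.49 to 5.75 against 4.83 to 5.03 in AECII, but 4.18 to 4.39 against 4.45 to 4.74 in AECI. Epithelial markers averaged 11.92 to 11.94 against 11.68 to 11.87 in AECII, but 11.96 to 12.15 against 12.26 to 12.29 in AECI. Immune and mesothelial markers separated only in AECII, neuroendocrine markers only in AECI, and AT2 markers in neither. Pathway lists separated as well. FGF binding and heparan sulfate genes averaged 9.74 in both experimental AECII arrays against 9.16 to 9.31 in control AECII. In AECI they averaged 9.875 to 9.98 in experimental against 9.67 to 9.81 in control arrays. FGF receptors and FGF response genes separated only in AECII, and the 9 further FGF ligands only in AECI, all lower in experimental cells. Separation was thus not particular to cell type lists, and how often lists separate by chance was not tested. The part of other cell types in the ligand values was not tested.

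For Fgf18 and Fgf1, the ligands called between the populations, no genotype difference passed the threshold. Fgf18 was -0.38 (SE 0.31, 95% interval -1.13 to 0.37, adjusted p = 0.783) in experimental minus control AECII and -0.31 (interval -1.06 to 0.44, adjusted p = 0.718) in AECI. Fgf1 was -0.03 (interval -0.58 to 0.52, adjusted p = 0.982) in AECII and -0.40 (interval -0.95 to 0.15, adjusted p = 0.523) in AECI, where both experimental arrays lay below both control arrays. Both AECII groups of Fgf1 thus lay below both AECI groups, while the AECII arrays of the genotypes overlapped and had no order. Inside each population the genotypes did not differ beyond their intervals.

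Larger genotype differences, none of them past the threshold, were measured for Fgf2, Fgf3, Fgf10, Fgf9, Fgf20 and Fgf7. Of these, only Fgf3 lay above the array median on every array. Fgf2 was -2.15 (SE 0.55, adjusted p = 0.529) in experimental minus control AECII, with the experimental arrays below the lower quartile. Fgf3 was -1.38 (SE 0.36, adjusted p = 0.529) in AECII and 0.08 (SE 0.36, adjusted p = 0.951) in AECI. Fgf10 was -1.65 (SE 0.56, adjusted p = 0.336) in AECI and -0.09 in AECII, and without replicate 1 of control AECI the first of these was -0.80. Fgf9 was 0.75 in AECII (adjusted p = 0.851) and 1.31 in AECI (adjusted p = 0.568), and the AECI value was -0.08 without the low control array. Fgf20 was 1.19 (SE 0.71, limma, adjusted p = 0.697) in AECII and 0.32 in AECI. Fgf7 was -0.86 (SE 0.52, limma, adjusted p = 0.701) in AECII and 0.51 in AECI.

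**Figure D4:**
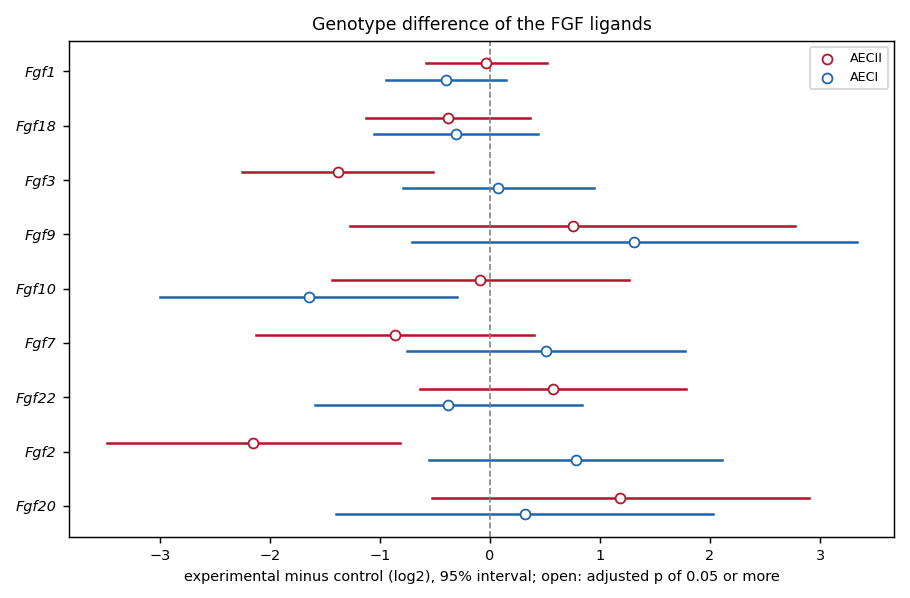
Difference of experimental minus control (x axis, log2) for each ligand (y axis) in AECII (red) and AECI (blue), with 95% intervals. All points are open because none passed an adjusted p of 0.05, and the widest intervals belong to Fgf9.

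Genes with the pattern most like each ligand above the array median were ranked by Pearson's r over the 8 arrays among genes averaging above the median. For Fgf18 and Fgf1 these arrays fall into 2 populations, so r mainly reads the population difference. Beside Fgf18 stood Akr1c14 (r = 0.997), a steroid dehydrogenase, Tspan15, a tetraspanin, Clic5, a chloride intracellular channel gene that marks type I cells, Ccn2, a matricellular protein, and Cdkn2b, a cell cycle inhibitor (r = 0.995). Clic5 read 10.69 and 10.31 in experimental AECII, 11.03 and 10.98 in control AECII, 14.37 and 14.44 in experimental AECI, and 14.69 and 14.56 in control AECI, with no overlap between the populations. Beside Fgf1 stood Wwtr1 (r = 0.999), which encodes the co-activator TAZ, then Rtn4, Zfyve21, Sh3d21 and Slc44a2 (r = 0.992). Wwtr1 read 9.27 and 9.16 in experimental AECII, 9.08 and 9.36 in control AECII, 10.7 and 10.4 in experimental AECI, and 11.1 and 11.2 in control AECI.

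The genes most like Fgf3 were Trmt1 (r = 0.937), Orm2, Mcoln3, Sorcs1 and Ntn1 (r = 0.869), of which Ntn1 encodes the guidance protein netrin-1. Those most like Fgf9 were Gng12 (r = 0.987), Nr2f2, Zbtb9, Gtf2e1 and Med4 (r = 0.969), and each of the 5 had its lowest value on replicate 2 of control AECI, the array on which Fgf9 was low. Nr2f2, a nuclear receptor, read 3.74 there and 6.70 to 7.52 on the other arrays. These correlations therefore rest largely on 1 array.

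Among the receptors, Fgfr2 was the only one of 7 receptor and coreceptor genes called over both genotypes, at 12.24 and 12.33 in experimental AECII, 12.60 and 12.62 in control AECII, 11.07 and 11.38 in experimental AECI, and 11.03 and 11.37 in control AECI. It was higher in AECII by 1.23 (SE 0.18, adjusted p = 0.0119), the opposite direction from Fgf1 and Fgf18, while Fgfr1 (-0.10, adjusted p = 0.834), Fgfr3 (-0.30, adjusted p = 0.475) and Fgfr4 (-0.99, adjusted p = 0.103) were not called. Of all genes, 4.69% were called higher and 3.62% lower in this comparison. In control lungs 1 of the 7 was called higher, beside 316 of 24306 genes, and in experimental lungs 0, beside 310. Probe sequences were not at hand, so the Fgfr2 values cannot show whether Fgfr2b was deleted.

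Heparan sulfate is the cofactor through which paracrine FGFs hold on to their receptors, and its genes split in direction. Of 16 measured genes that bind FGFs or build heparan sulfate, 3 were lower and 2 higher in AECII over both genotypes, against 3.62% of all genes lower and 4.69% higher, and the median difference was -0.06 beside -0.02 for all genes. Hs2st1, the heparan sulfate 2-O-sulfotransferase, read 11.9 and 12.0 in experimental AECII, 11.9 and 12.0 in control AECII, 13.9 and 13.8 in experimental AECI, and 14.3 and 14.2 in control AECI, a difference of -2.05 (SE 0.15, adjusted p = 0.00199). Ndst1, the N-deacetylase and N-sulfotransferase, was also lower, at -2.18 (SE 0.16, adjusted p = 0.00188). Sulf1, which removes 6-O-sulfate groups outside the cell, was at -3.89 (SE 0.52, adjusted p = 0.00941), whereas its relative Sulf2 was higher in AECII by 1.21 (SE 0.21, adjusted p = 0.0227). Sdc4, a syndecan core protein, was higher by 0.83 (adjusted p = 0.0275). Hs2st1 and Ndst1 were called lower in each genotype, and Sulf1 in control lungs.

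Of 19 genes known to respond to FGF and ERK signalling, 1 was lower and 2 higher in AECII over both genotypes, against 3.62% of all genes lower and 4.69% higher, with a median difference of 0.02. Ier3, an immediate early gene, was at -1.69 (SE 0.22, adjusted p = 0.00866). Dusp4, an ERK phosphatase, was higher by 1.57 (SE 0.31, adjusted p = 0.0322) and Spred2, an inhibitor of the Ras pathway, by 1.22 (SE 0.19, adjusted p = 0.016). Etv5 (0.67, adjusted p = 0.0921), Spry2 (0.39, adjusted p = 0.284) and Dusp6 (-0.74, adjusted p = 0.0771) did not pass. Spred3 was called in experimental lungs, at -1.39 (adjusted p = 0.0491), and was at 0.28 in control lungs (adjusted p = 0.656), and the difference between the 2 did not pass (-1.67, adjusted p = 0.538). None of these genes, receptors or heparan sulfate genes was called by genotype.

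A further 9 FGF ligands were on the array (Fgf4, Fgf5, Fgf6, Fgf8, Fgf15, Fgf16, Fgf17, Fgf21 and Fgf23), and none was called in any comparison. Over both genotypes their median difference was -0.16. Among them, Fgf23 averaged 12.92 and Fgf8 averaged 9.23, each on 1 spot. Fgf23 read 12.6 to 13.3 on every array. As said above, signal does not rank ligands by abundance. Of the 4 intracellular FGF homologous factors, Fgf11 to Fgf14, which are not secreted, none was called either.

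**Figure D5:**
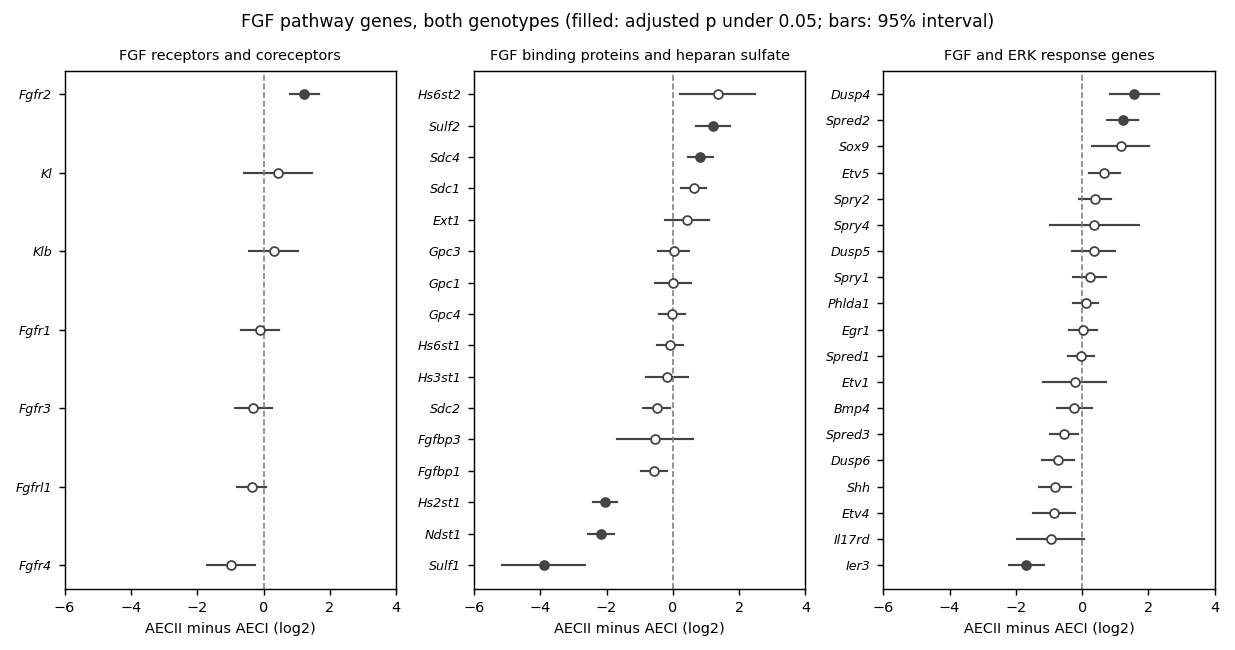
Difference of AECII minus AECI over both genotypes (x axis, log2) for receptors, heparan sulfate and FGF binding genes and response genes (y axis, one panel per list). Bars are 95% intervals and filled points passed an adjusted p of 0.05. Fgfr2, Sdc4, Sulf2, Dusp4 and Spred2 were higher in AECII, and Hs2st1, Ndst1, Sulf1 and Ier3 were lower.

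Some markers of other cells moved between the same populations as Fgf18 and Fgf1. The counts below stand against 3.62% of all genes called lower and 4.69% called higher in AECII. Of 7 mesothelial markers 5 were lower in AECII, and the mean log2 level of the 7 was 5.47 to 5.77 in AECII and 8.12 to 8.90 in AECI. The list holds the keratin Krt19, which raised this mean, at 10.8 to 11.4 in AECII and 12.9 to 13.5 in AECI. Krt19 moved in the same direction as the epithelial keratins Krt8 and Krt18. Upk3b, a mesothelial uroplakin, read 2.87 and 2.03 in experimental AECII, 2.14 and 3.76 in control AECII, 9.69 and 9.17 in experimental AECI, and 8.45 and 8.15 in control AECI, whereas Wt1 differed by -0.10 (adjusted p = 0.759). Of 13 mesenchymal markers 5 were lower in AECII (Dcn, Sparc, Col3a1, Col1a1 and Col1a2), with a mean level of 7.79 to 8.31 in AECII and 8.54 to 9.57 in AECI. Ciliated cell markers went the other way, with 8 of 10 higher in AECII and a mean level of 9.66 to 11.1 in AECII and 6.94 to 7.997 in AECI. Club cell markers were higher in AECII for 5 of 7, at 9.87 to 11.001 in AECII and 8.02 to 8.97 in AECI. Of the remaining lists, 1 of 7 endothelial (Cdh5), 1 of 6 immune (Lyz2) and 2 of 5 erythroid markers were higher in AECII, 2 of 6 epithelial markers (Krt8 and Krt18) were lower, and none of 5 neuroendocrine markers was called. A single call in so short a list is not read as a change of that cell type. The part of these cells in the values of Fgf18 and Fgf1 was not tested.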

How the data were processed

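Deposited values are log2 signals of 8 single-colour arrays (Cy5, 2 µg of amplified cDNA). They were already normalized by the authors, whose processing notes name limma without a version. The sources used here do not give the background correction. Sorted values of the arrays differed by at most 0.00557, so nothing was normalized again. Spots were named from the platform annotation, with symbols updated through RefSeq of GRCm38.p6, and the spot of highest mean over the arrays stood for its gene. The main test was limma 3.58.1 in R 4.3.3 (lmFit on 4 group means, eBayes without trend, 4 residual and 2.26 prior degrees of freedom) with Benjamini-Hochberg adjustment over 24306 genes within each contrast and a threshold of adjusted p 0.05. Intervals are at 95%. Tested on simulated data for AECII minus AECI in control lungs, over 24306 genes with the real means and spreads, the fit recovered 0.4%, 24%, 45.2% and 59.2% of genes changed by 1, 2, 3 and 4 log2 units, with 3 false calls on average. Only a small set of genes was changed there, all upward in control AECII. The real contrast called 316 genes higher and 373 lower, so its recovery can differ from these shares. The members and gene lists were chosen with earlier results of these data known. Named were all 9 ligands, up to 4 called genes of each list by size of the difference (up to 2 more of a pathway list called in another contrast), Fgfr1 to Fgfr4, Etv5, Spry2 and Dusp6, and the 5 genes most correlated with each ligand above the array median. Further genes were named in lists for completeness after their values were seen. Alternatives covered the variance prior, the choice of spot, centring of arrays, a filter on dim genes, the groups fitted, the replicate number as a block, and leaving out arrays. Precision is limited by 2 arrays per group. Tables and plots were made with Python 3.11.15, numpy 2.4.6, pandas 2.3.3 and matplotlib 3.10.9.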

Additional observations from a re-analysis of the deposited data

Results flagged for a closer look

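The arrays of Fgf3 were split by genotype without overlap in both populations, with opposite signs, but neither genotype difference passed the threshold (limma, adjusted p = 0.529 in AECII and 0.951 in AECI). Splits without overlap were common, with 47.1% of all genes in AECII and 39.9% in AECI. How many genes split with opposite signs was not counted. The AECI split of Fgf3 rested on 6.79 and 6.72 against 6.69 and 6.66. Both experimental AECII arrays lay below both control AECII arrays (-1.38), and both experimental AECI arrays lay above both control AECI arrays (0.08, or -0.04 once the arrays were centred on their gene medians). Seen the other way, AECII lay below AECI in experimental lungs (-0.37) and above it in control lungs (1.10). The populations did not overlap for 54.9% of all genes in experimental and 45.6% in control lungs. The difference between the 2 genotype effects was -1.46 (SE 0.51, 95% interval -2.69 to -0.23), which did not pass after adjustment over all genes (limma, adjusted p = 0.539). On the second Fgf3 spot, which lay below the array median, the same difference was -2.34 (adjusted p = 0.538), and on the third it was -0.42 (adjusted p = 0.901).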

How the results depend on the processing

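The ligands called in AECII minus AECI changed with several choices. With only the compared groups fitted, which leaves fewer arrays, 0 were called in experimental lungs (1 in the fit above) and 0 in control lungs (2 in the fit above). Leaving out both arrays with low Xist gave 0 in experimental lungs, 0 in control lungs and 1 (Fgf18) over both genotypes, against 2. With a prior that follows a mean-variance trend, and with only genes above the array median tested, 2 were called in experimental lungs, Fgf1 joining Fgf18. The trend also added Fgf2 in control lungs (adjusted p = 0.0454). Leaving out 1 array at a time, the count was 0 to 1 in experimental lungs, 0 to 1 in control lungs and 1 to 3 over both genotypes. Such fits with 3 residual degrees of freedom assume that a lone array varies like the other groups. No genotype comparison called a ligand under any alternative.

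The replicate numbers only name the samples. Deviations of same-numbered arrays from their group means correlated across genes with r between -0.10 and 0.04, so the numbers were not taken as pairs. With the replicate block 1 ligand, Fgf18, was called in control lungs, and no other count changed. With the numbers of control AECI exchanged, chosen after seeing the data because same-numbered control AECII and AECI arrays correlated negatively, the count was also 1.

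Of 631 refitted single differences, 34 changed sign, none of them of a called ligand difference. From the second brightest spot, Fgf10 gave -0.20 in AECII minus AECI of experimental and 0.19 of control lungs and 0.25 in experimental minus control AECI, Fgf22 gave -0.68, 0.47 and 1.16 in these comparisons, and Fgf2 gave -0.53 in AECII minus AECI of control lungs and 0.25 in experimental minus control AECII. From the mean over all spots, Fgf22 gave -0.062 and 0.037 in AECII minus AECI of experimental and control lungs and 0.39 in experimental minus control AECI, and Fgf1 gave 0.13 in experimental minus control AECII. Without both low-Xist arrays, experimental minus control was 0.093 for Fgf1 and 0.20 for Fgf10 in AECII and -0.55 for Fgf20 in AECI. Centring the arrays gave -0.040 for Fgf3 in AECI.

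Leaving out 1 array at a time, signs changed in AECII minus AECI of control lungs for Fgf9 (-0.40 to 2.39), Fgf10 (-1.50 to 0.19), Fgf20 (-1.17 to 0.57) and Fgf22 (-0.96 to 0.17), and of experimental lungs for Fgf2 (-1.35 to 0.13), Fgf7 (-0.60 to 0.60) and Fgf20 (-0.046 to 1.18). They changed in experimental minus control AECI for Fgf7 (-0.092 to 1.11), Fgf9 (-0.081 to 2.71), Fgf20 (-0.55 to 1.19) and Fgf22 (-0.94 to 0.18), and in AECII for Fgf1 (-0.16 to 0.093) and Fgf10 (-0.37 to 0.20). The cause was not tested. All of these ligands but Fgf1 and Fgf9 averaged below the array median, where signal over background is unknown and limits what a difference can show.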
